A study of Mus musculus with 12 samples.

Results

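The genes described here are chaperones, which help other proteins fold, and the sensors and transcription factors of the unfolded protein response. The list holds 40 genes in 7 roles. Each was represented by its brightest probe set among those assigned to a single gene symbol, and 37 of the 40 were measured this way, out of 18193 genes in the series. Probe sets of Ptges3 carry several symbols, and Hsp90ab1 and Hsf1 were not matched to a symbol in the platform annotation used, so these 3 have no value. All 37 measured members lay above the filter on dim signals, as did 11171 genes in all.

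The samples were thymocytes of female C57BL/6 mice aged 5 to 6 weeks, with no transgene or treatment named in the labels. The sort took 3 successive stages of early T cell development: DN2 (CD44+CD25+), DN3 (CD44-CD25+) and DN4 (CD44-CD25-). All are double negative (DN) cells, taken after CD4+ and CD8+ cells had been depleted, and the gate left out cells positive for NK1.1, CD3 or a gamma-delta receptor. There were 4 sorts, each from the pooled thymuses of 4 mice (16 mice), and each sort contributes 1 Affymetrix Mouse Genome 430 2.0 array to every stage, which makes 3 groups of 4 arrays. A group is therefore made of pools, and differences between single mice were not measured.

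Chaperones of the cytosol fall into families built on Hsp70, Hsp90 and the ring-shaped chaperonin TRiC, with cochaperones that load substrates or drive nucleotide exchange. Mitochondria and the endoplasmic reticulum (ER) hold chaperones of their own. Misfolded protein in the ER activates the sensors PERK, IRE1 and ATF6, which lower translation through eIF2 alpha, splice Xbp1 mRNA and release a transcription factor, while heat shock factors drive the stress-inducible cytosolic genes. Between DN2 and DN4 thymocytes rearrange the T cell receptor beta chain, and those that succeed then proliferate rapidly.

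Arrays were compared on normalized signals, which are linear intensities after quantile normalization, and differences are on the scale of log2(signal + 5.68), where 5.68 is the 25th percentile of the table. This scale understates changes of dim genes, and signals of different probe sets are not compared with each other. Trimmed mean signals of the deposited arrays ranged from 129 to 233. Before normalization the log2 median of the arrays averaged 4.45 ± 0.31 in DN2, 4.49 ± 0.17 in DN3 and 4.07 ± 0.11 in DN4 (SD, n = 4 each). By exact two-sided permutation p was 0.0286 in DN4 against DN3 (adjusted over 9 tests 0.257). In DN4 against DN2 it was 0.114 (adjusted 0.342), so the scale of the deposited arrays partly went with the stage. The 3′ to 5′ ratio of Gapdh, a sign of RNA integrity, lay between 0.88 and 1.82 on the log2 scale and averaged 1.04 ± 0.17 in DN3 against 1.39 ± 0.32 in DN2 (SD, n = 4 each, exact two-sided permutation p = 0.114, adjusted over 9 tests 0.342). The genes that defined the gates went with the labels: Cd44 averaged 725, 49.5 and 47.1 in DN2, DN3 and DN4, and Il2ra, which encodes CD25, averaged 2358, 1414 and 120. The summed signals of myeloid, natural killer and mast cell genes were highest in DN2. The summed signal of 10 myeloid genes was 602 to 1365 in DN2, 207 to 290 in DN3 and 135 to 216 in DN4, with 4 of the 9 that passed the filter lower in DN3 than in DN2. For 6 natural killer cell genes the sum was 1825 to 2059 in DN2, 488 to 770 in DN3 and 113 to 136 in DN4, and Nkg7 and Gzmb made up most of it while Ncr1 lay below the filter. Of the 4 past the filter, 3 were lower and 1 higher (by 0.63) in DN3 than in DN2. For 6 mast cell genes it was 2751 to 3791 in DN2, 82.8 to 240 in DN3 and 50.4 to 75.3 in DN4, nearly all of it Cpa3, and the other 5 lay below the filter. In DN2, DN3 and DN4 the median sum of 3 gamma-delta T cell genes was 790, 716 and 573. That of 7 B cell genes was 302, 238 and 264, and that of 8 dendritic cell genes 596, 271 and 684. Some other lists were also highest at a later stage. For 8 genes of double-positive and mature alpha-beta T cells the sum was 426 to 735 in DN2, 297 to 420 in DN3 and 772 to 1099 in DN4; of the 7 past the filter, Cd8a, Cd8b1 and Cd6 were higher and S1pr1 lower in DN4 than in DN2, and Cd4 lay below the filter at every stage. The sums of 6 plasma cell genes and 2 red cell genes were highest in DN4 (medians of 4499 and 61.4 in DN4, 3288 and 10.5 in DN2), and that of 8 genes of thymic epithelium and stroma in DN3 (488 to 696 in DN3, 276 to 416 in DN2). Of the 3 plasma cell genes past the filter 1 was higher and 1 lower in DN4 than in DN2, and 0 red cell genes passed it. Of the 5 stroma genes past the filter 1 was higher and 1 lower in DN3 than in DN2, and their median difference was -0.30. No marker value was exactly 0. The part of such cells in the results below was not tested, and in sorted pools fewer cells of a type and less RNA per cell cannot be told apart.

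Most chaperones that changed were higher at DN4 than at DN2. By the fit without the pairing by sort, the single steps between neighbouring stages carried few calls. With the sort as a replicate block, given below, 10 members were higher in DN3 than in DN2, against 9.97% of all genes. With the Gapdh ratio added as a covariate 1 was, against 1.4%. With limma on all 12 arrays and Benjamini-Hochberg adjustment over 11171 genes at a threshold of 0.05, 14 members were higher and 3 lower in DN4 than in DN2, which is 37.8% and 8.11% of the 37, against 17.9% higher and 16.6% lower among all genes tested. In DN3 against DN2, 2 members were higher and 1 lower, which is 5.41% and 2.7%, against 4.78% and 6.45% of all genes. In DN4 against DN3, 0 were higher and 2 lower, against 7.21% and 9.05% of all genes, and at an unadjusted p under 0.05 the counts were 2 and 2. The share of all genes at an unadjusted p under 0.05 was not taken, here or below. The median difference of the members was 0.13, 0.02 and 0.25 in DN3 against DN2, DN4 against DN3 and DN4 against DN2, beside 0.02, 0.05 and 0.06 for all genes. Relative to all genes the members' median was thus 0.11, -0.03 and 0.18. With arrays centred on their median it was 0.13, 0.18 and 0.43, the sign in DN4 against DN3 being turned, without normalization likewise 0.13, 0.18 and 0.43, and with the replicate block and the Gapdh ratio as a covariate 0.11, 0.01 and 0.08. Among the 14 higher members the difference at both steps was above 0, and it was the greater one at DN3 against DN2 for 11 and at DN4 against DN3 for 3. These 14 were chosen by their total difference, which favours steps above 0, and genes outside the list were not counted this way. Without normalization the median of the mitochondrial, chaperonin and ER roles in DN4 against DN3 was -0.13, -0.11 and -0.30, beside -0.41 for all genes. Signals did not overlap between DN4 and DN2 for 13 members that were higher and 3 that were lower, where 17% and 15.5% of all genes were so separated. Between DN3 and DN2 this held for 12 and 2 members (8.11% and 9.33% of all genes), and between DN4 and DN3 for 3 and 2 (12.5% and 11.5%).

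Since the 3 stages of a sort come from the same pool of thymuses, the fit was also made with the sort as a replicate block. It called 10 members higher and 3 lower in DN3 than in DN2, 2 higher and 2 lower in DN4 than in DN3, and 17 higher and 6 lower in DN4 than in DN2, while the share of all genes called was 9.97% and 10.9%, 15.4% and 14.8%, and 24.9% and 21.9%. With the Gapdh ratio as a covariate beside the block, 1 member was higher and 0 lower in DN3 than in DN2, 0 and 2 in DN4 than in DN3, and 10 and 2 in DN4 than in DN2. The share of all genes called was then 1.4% and 2.11%, 12% and 12.5%, and 16.6% and 15.1%. Eif2ak3 was the 1 left in DN3 against DN2, so that none of the other calls in that comparison given below with the block, nor those of Hspd1 and Dnajb1, held with this covariate (adjusted p of 0.126 to 0.754). In DN4 against DN2 it ended the calls of Tcp1 (adjusted p = 0.062), Cct8 (0.078), Hspe1 (0.139), Hspa9 (0.136), Canx (0.0801) and Dnajb1 (0.0787), and of the calls made only with the block that of Stip1 held. The count of 14 fell to 8 without DN2 of sort 1 or without DN4 of sort 4, and to 9 without DN4 of sort 2 or 3. Without normalization between arrays the median of all genes lay at 0.13 in DN3 against DN2, -0.41 in DN4 against DN3 and -0.29 in DN4 against DN2, in place of 0.02, 0.05 and 0.06, and 0.348% of all genes were higher and 25.3% lower in DN4 than in DN3, and 2.56% and 24.5% in DN4 than in DN2. Relative to that median, the 14 members higher in DN4 than in DN2 then still lay 0.45 to 1.37 above it, and 2 of them, Hsph1 and Eif2ak3, passed the test, so that 0 of the mitochondrial chaperones and 0 of the chaperonin subunits did. The 3 lower members lay at -1.12 to -0.19 relative to it, and 2 of them passed. In DN4 against DN3 both lower members lay at -1.08 and -0.38 relative to the median, and both passed. Centring arrays on their median ended the calls of Pdia4 and Dnajb1, and testing without the filter those of Tcp1, Cct5, Hspe1, Hspa9, Trap1, Ahsa1, Canx and Dnajb1 in DN4 against DN2.

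**Figure D1:**
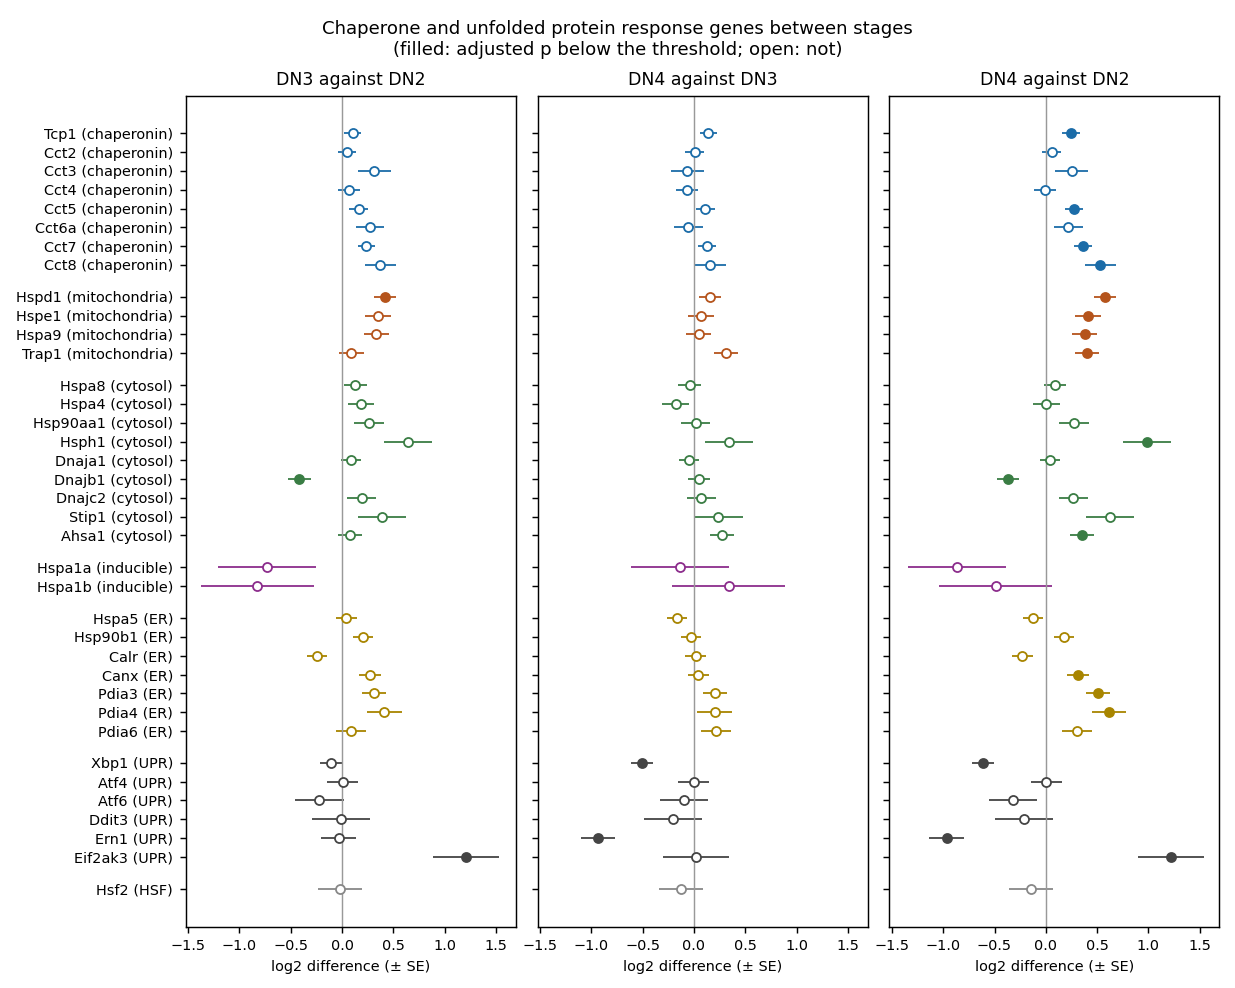
Difference of each measured member between stages, on the log2(signal + offset) scale with its standard error from limma (n = 4 arrays a stage), grouped by role from top to bottom; filled points have an adjusted p below 0.05. In DN4 against DN2 the 4 mitochondrial chaperones and 4 of the 8 chaperonin subunits are filled on the right, and Xbp1 and Ern1 on the left.

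Among the sensors of the unfolded protein response 1 was called higher, 1 lower and 1 not called. Eif2ak3, which encodes the eIF2 alpha kinase PERK, was higher from DN3 on, whereas Ern1, which encodes the IRE1 nuclease that splices Xbp1 mRNA, was lower in DN4, as was Xbp1 itself. The call of Ern1 rests on its brightest probe set, and Atf6 was not called. Of the 6 members of this role, 1 was higher and 0 lower in DN3 than in DN2, 0 and 2 in DN4 than in DN3, and 1 and 2 in DN4 than in DN2. The last counts are 16.7% and 33.3%, against 17.9% and 16.6% of all genes.

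In sorts 1 to 4, Eif2ak3 had signals of 2179, 1953, 745 and 925 in DN2, 3667, 3494, 2451 and 2684 in DN3 and 3295, 4142, 2490.3 and 2595 in DN4. Every DN3 and DN4 array lay above every DN2 array, and at DN2 the arrays of sorts 1 and 2 were higher than those of sorts 3 and 4. The difference was 1.21 ± 0.32 (SE, adjusted p = 0.0307) in DN3 against DN2 and 1.22 ± 0.32 (SE, adjusted p = 0.0115) in DN4 against DN2, while DN4 against DN3 gave 0.02 ± 0.32 (SE, adjusted p = 0.98). The other probe sets of Eif2ak3, both dimmer, differed by 1.61 ± 0.23 and 0.82 ± 0.30 in DN3 against DN2. The call in DN3 against DN2 ended when any of 5 arrays was left out (DN2 of sorts 3 and 4, DN3 of sorts 1, 2 and 4), with adjusted p of 0.0542 to 0.0858. On the DN2 arrays Fos, an immediate-early gene that handling of cells can induce, ran the other way. It had 1355 and 1465 in sorts 1 and 2 and 4771 and 4559.8 in sorts 3 and 4. Fos was picked from 12 such genes after its values were seen, and its part was not tested.

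For Ern1 the signals were 375, 249, 389 and 289 in DN2, 412, 254, 311 and 296 in DN3 and 166, 159, 164 and 156 in DN4. The 4 DN4 values lay close together and below all others, and DN3 and DN2 overlapped. Ern1 differed by -0.94 ± 0.17 (SE, adjusted p = 0.00348) in DN4 against DN3 and -0.97 ± 0.17 (SE, adjusted p = 0.000979) in DN4 against DN2, lower in 4 of 4 sorts, and by -0.03 ± 0.17 (SE, adjusted p = 0.939) in DN3 against DN2. The probe sets of Ern1 did not all show this: the next brightest differed by -0.04 ± 0.25 in DN4 against DN3, and another by -0.29 ± 0.26. Averaged over all 5 probe sets the difference was -0.16 (adjusted p = 0.448) in DN4 against DN3 and -0.27 (adjusted p = 0.145) in DN4 against DN2.

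Xbp1 encodes the transcription factor made from the spliced mRNA, and it had signals of 3954, 4839, 3875 and 3577 in DN2, 3769, 3739, 3893 and 3606 in DN3 and 2716, 2583, 2669.9 and 2567 in DN4. Here too DN4 lay below every array of the other stages. The difference was -0.51 ± 0.11 (SE, adjusted p = 0.00773) in DN4 against DN3 and -0.61 ± 0.11 (SE, adjusted p = 0.000948) in DN4 against DN2, lower in 4 of 4 sorts each time. Of its other 3 probe sets, the brighter 2 differed by -0.61 ± 0.17 and -0.41 ± 0.16 in DN4 against DN3 and the dimmest by 0.13 ± 0.28, and the average over all 4 did not pass the test (-0.35, adjusted p = 0.118, and -0.34, adjusted p = 0.0875, in DN4 against DN2). Splicing of Xbp1 was not measured.

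The other members of this role were not called by limma. Atf6, the sensor cleaved in the Golgi, was dim, with signals of 44.3 to 88.8 in DN2, 38.5 to 65.2 in DN3 and 35 to 63.6 in DN4, and differed by -0.32 ± 0.24 (SE, adjusted p = 0.319) in DN4 against DN2, or adjusted p = 0.0204 with the replicate block. Ddit3, which encodes CHOP, the factor tied to cell death under ER stress, differed by -0.21 ± 0.28 (SE, adjusted p = 0.598) in DN4 against DN2, and its values in sort 1 were the highest at every stage. Plasma cells are rich in Xbp1 and its targets; of 6 plasma cell genes measured, Sdc1, Prdm1 and Irf4 lay below the filter, Mzb1 had signals of 370 to 440 in DN2, 330 to 398 in DN3 and 99.3 to 180 in DN4, and Ighm was higher in DN4 than in DN3 (adjusted p = 0.00567). The summed signal of these 6 was 2389 to 3749 in DN2, 2977 to 3315 in DN3 and 4424 to 4959 in DN4, and its part in the Xbp1 values was not tested.

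**Figure D2:**
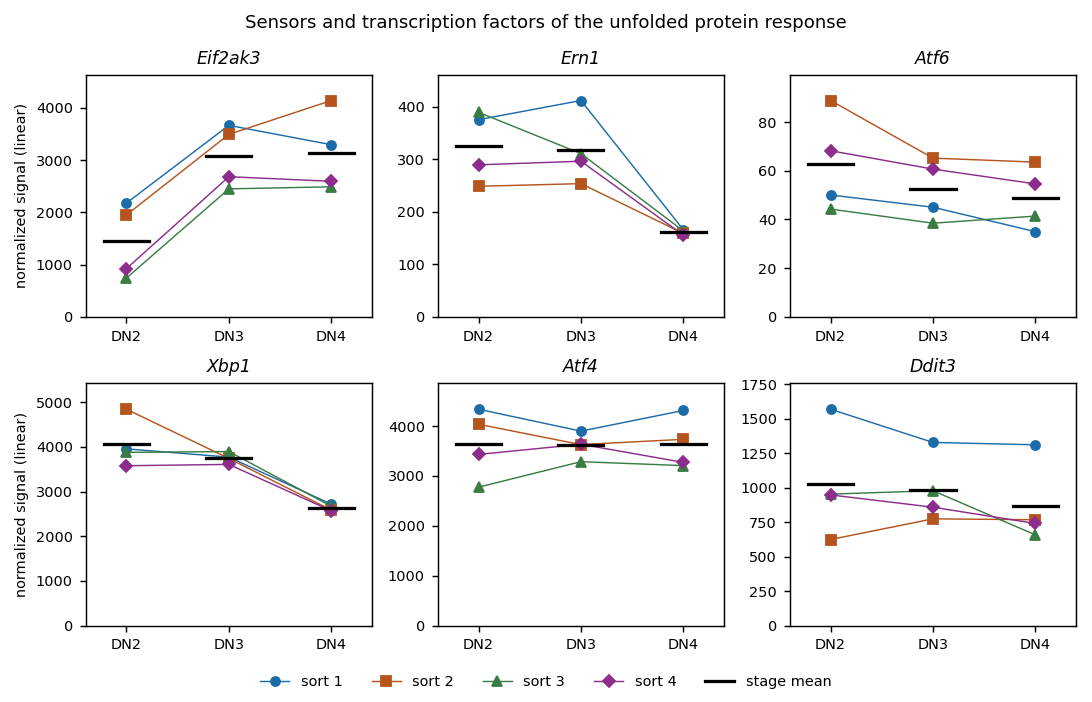
Normalized signal (linear axis) of the 6 sensors and transcription factors of the unfolded protein response at DN2, DN3 and DN4; points joined by a line are the arrays of 1 sort and black bars are the mean of the 4 arrays. Eif2ak3 is higher in DN3 and DN4 than in DN2 in each sort, and the 4 DN4 arrays of Ern1 (156 to 166) and Xbp1 (2567 to 2716) lie together below the rest.

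In DN4 against DN2, counts among genes of the XBP1 and ATF6 programme were near those of all genes. Of 32 genes of the XBP1 and ATF6 programme and of ER-associated degradation, 3 were higher and 1 lower in DN3 than in DN2, 1 and 2 in DN4 than in DN3, and 5 and 6 in DN4 than in DN2 (15.6% and 18.8%, against 17.9% and 16.6% of all genes), with median differences of -0.04, 0.07 and 0.09. The block changed these counts to 6 and 4, 4 and 3, and 7 and 7. With it 9.97% and 10.9%, 15.4% and 14.8%, and 24.9% and 21.9% of all genes were called. Sdf2l1, an ER-resident partner of Hspa5, differed by 0.65 ± 0.14 (SE, adjusted p = 0.00863) in DN3 against DN2, 0.48 ± 0.14 (adjusted p = 0.0333) in DN4 against DN3 and 1.13 ± 0.14 (adjusted p = 6.95e-05) in DN4 against DN2. Edem1, which draws misfolded glycoproteins towards degradation, was higher in DN3 than in DN2 by 0.98 ± 0.24 (adjusted p = 0.0181). Selenos and Derl1, membrane components of the ER degradation machinery, were lower in DN4 than in DN3, by -0.55 ± 0.11 (adjusted p = 0.00598) and -0.42 ± 0.10 (adjusted p = 0.0146). Of 22 genes of the integrated stress response, the branch that PERK feeds, 1 was higher in DN3 than in DN2. In DN4 against DN3 0 were called by limma, where 7.21% of all genes were higher and 9.05% lower. At an unadjusted p under 0.05 6 were higher and 1 lower there, a threshold at which the share of all genes was not taken. With the replicate block 6 were higher and 0 lower, where 15.4% and 14.8% of all genes were called. In DN4 against DN2 5 were higher and 1 lower (22.7% and 4.55%, against 17.9% and 16.6% of all genes). In the same order the median differences of this list were 0.02, 0.28 and 0.26, beside 0.02, 0.05 and 0.06 for all genes. Ppp1r15a, which encodes the phosphatase subunit that reverses PERK's mark on eIF2 alpha, differed by 0.84 ± 0.18 (adjusted p = 0.00832) in DN3 against DN2 and 0.84 ± 0.18 (adjusted p = 0.00298) in DN4 against DN2.

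In the ER, the oxidoreductases Pdia3 and Pdia4 and the lectin chaperone Canx were higher in DN4 than in DN2, while the main Hsp70 of the compartment, Hspa5, and the lectin Calr were not called. Of 7 members, 0 were called in DN3 against DN2 or in DN4 against DN3 by limma, where 3 were higher and 1 lower, and 0 and 0, at an unadjusted p under 0.05. With the replicate block 1 was higher and 1 lower in DN3 than in DN2, where 9.97% and 10.9% of all genes were called. In DN4 against DN2 the counts by limma were 3 and 0 (42.9% and 0%, against 17.9% and 16.6% of all genes). With the block they were 4 and 1, where 24.9% and 21.9% of all genes were called.

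Promoters of ER chaperones are known for the ER stress element, to which ATF6 binds together with the CCAAT factor NF-Y. It was searched as CCAAT and CCACG with 9 bases between them, on both strands of a window of 300 bases, 250 before to 50 after the start site (RefSeq, GRCm38.p6), and 0.119% of 32851 promoters held it. Of the 40 genes of the list 32 had a window, and 5 of these held the element: Calr, Canx, Hsp90b1, Hspa5 and Pdia6, all of the ER group. The matches are shown because they are what these members have in common in sequence; capitals mark the fixed bases.
Hspa5, chr2:34772025-34772043, 65 bases before the start: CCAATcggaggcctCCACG
Canx, chr11:50325800-50325818, 145 bases before the start: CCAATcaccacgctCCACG
Pdia6, chr12:17266491-17266509, 98 bases before the start: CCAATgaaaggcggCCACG
Calr, chr8:84847075-84847093, 162 bases before the start, on the strand opposite to the gene: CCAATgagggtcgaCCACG
Hsp90b1, chr10:86705638-86705656, 212 bases before the start: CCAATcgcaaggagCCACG
Hsp90b1, chr10:86705533-86705551, 107 bases before the start, on the strand opposite to the gene: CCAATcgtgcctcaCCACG

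In DN4 against DN2 the 5 genes with a match differed by -0.23 to 0.32, and Canx alone was called by limma. The whole windows of Hspa5 and Canx, 1 member that was not called and 1 that was, are given 5′ to 3′ on the strand of the gene, with matches in capitals. In the Hspa5 window the first match is the unfolded protein response element TGACGTG, an XBP1 and ATF6 motif that 2.01% of all windows held on either strand, and the second is the ER stress element. Hspa5 was the only one of the 32 members with a window to hold TGACGTG. A match is a description of the letters and does not show that a factor binds there.
Hspa5, chr2:34771840-34772139, plus strand: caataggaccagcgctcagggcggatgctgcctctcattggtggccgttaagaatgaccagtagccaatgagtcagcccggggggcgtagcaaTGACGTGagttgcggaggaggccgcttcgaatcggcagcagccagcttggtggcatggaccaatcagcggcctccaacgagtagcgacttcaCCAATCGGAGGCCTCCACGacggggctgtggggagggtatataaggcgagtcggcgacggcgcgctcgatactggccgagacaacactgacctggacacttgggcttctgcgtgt
Canx, chr11:50325624-50325923, minus strand: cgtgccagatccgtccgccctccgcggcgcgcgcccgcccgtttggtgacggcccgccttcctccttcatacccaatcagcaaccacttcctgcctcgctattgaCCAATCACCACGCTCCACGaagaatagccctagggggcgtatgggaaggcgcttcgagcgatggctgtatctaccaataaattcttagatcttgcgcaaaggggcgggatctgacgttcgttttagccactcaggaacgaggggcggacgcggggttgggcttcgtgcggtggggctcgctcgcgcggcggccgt

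Pdia3, a disulfide isomerase that works with the lectin chaperones, had signals of 657, 825, 717 and 737 in DN2, 952, 903, 896 and 883 in DN3 and 1222, 1105, 901 and 984 in DN4 in sorts 1 to 4. Its DN3 and DN4 arrays all lay above the DN2 arrays, and DN4 and DN3 overlapped. The difference was 0.51 ± 0.12 (SE, adjusted p = 0.00529) in DN4 against DN2 and 0.31 ± 0.12 (SE, adjusted p = 0.12) in DN3 against DN2. Pdia4, another isomerase of the family, was dimmer, at 123, 139, 147 and 108 in DN2, 153, 203, 175 and 164 in DN3 and 268, 201, 197 and 149 in DN4. All its DN4 values lay above all its DN2 values, and the spread within DN4 was wide. The difference was 0.62 ± 0.17 (SE, adjusted p = 0.0145) in DN4 against DN2, or 0.45 (adjusted p = 0.067) with arrays centred on their median.

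Canx encodes calnexin, the membrane-bound lectin chaperone, and had signals of 3129, 3414, 4057 and 3514 in DN2, 3986, 4214, 4313 and 4464 in DN3 and 4043, 4526, 4433 and 4507 in DN4. In DN4 against DN2 it differed by 0.32 ± 0.10 (SE, adjusted p = 0.0352), higher in 4 of 4 sorts although the DN2 array of sort 3 reached into the DN4 range. Leaving out any of 6 arrays (DN2 of sorts 1, 2 and 4, DN4 of sorts 2, 3 and 4) ended this call, with adjusted p of 0.062 to 0.0855. Its probe sets disagreed: the others differed by -0.12 ± 0.14 and 0.89 ± 0.17 in DN4 against DN2. With the replicate block Canx was also called in DN3 against DN2 (0.27, adjusted p = 0.0388).

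Hspa5, which encodes BiP, had signals of 7655 to 8988 in DN2, 8072 to 9059 in DN3 and 6914 to 8127 in DN4, and differed by -0.12 ± 0.10 (SE, adjusted p = 0.369) in DN4 against DN2, with a 95% interval of -0.34 to 0.10. Calr, which encodes calreticulin, the soluble partner of calnexin, had signals of 2047 to 2451 in DN2, 1813 to 2033 in DN3 and 1783 to 2104 in DN4. The DN3 arrays of Calr lay below the DN2 arrays, with a difference of -0.25 ± 0.10 (SE, adjusted p = 0.149) in DN3 against DN2, or adjusted p = 0.041 with the replicate block, under which the difference in DN4 against DN2 (-0.23) had an adjusted p of 0.0276. Averaging all 3 probe sets of Calr gave -0.41 (adjusted p = 0.0133) in DN3 against DN2 and -0.35 (adjusted p = 0.0125) in DN4 against DN2. Hsp90b1 and Pdia6 were not called either, though Pdia6 had an adjusted p of 0.0357 in DN4 against DN2 with the block.

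**Figure D3:**
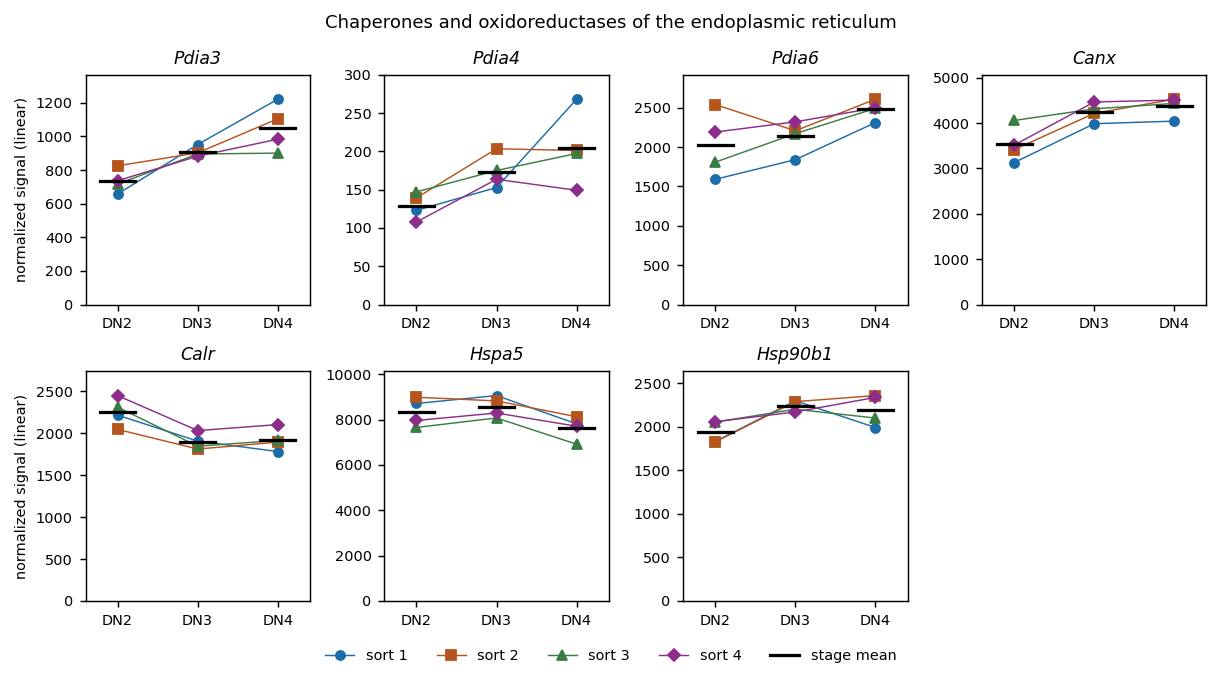
Normalized signal (linear axis) of the 7 ER chaperones and oxidoreductases at DN2, DN3 and DN4; lines join the arrays of 1 sort and black bars are means of 4 arrays. Pdia3 and Pdia4 lie higher in DN4 than in DN2 without overlap, Canx is higher in each sort with overlap, and Calr lies lower in DN3 than in DN2.

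All 4 mitochondrial chaperones were higher in DN4 than in DN2, by 0.38 to 0.57 on the log2 scale. Among all genes 17.9% were higher there. Hspd1 and Trap1 held with the replicate block and the Gapdh ratio, and Hspe1 and Hspa9 did not. The largest of these differences was that of Hspd1, which encodes the chaperonin barrel of the matrix. Hspe1 encodes its lid, Hspa9 the matrix Hsp70 that pulls imported proteins inward, and Trap1 the mitochondrial Hsp90. Hspd1 was the only one called in DN3 against DN2, and in DN4 against DN3 0 of 4 were called by limma, 1 at an unadjusted p under 0.05. The block raised these counts to 2 in DN3 against DN2 and 1 in DN4 against DN3, where 9.97% and 15.4% of all genes were higher.

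Hspd1 and Hspe1 are head-to-head neighbours, and their windows overlap: 285 bases of the Hspd1 window at chr1:55087883-55088182 on the minus strand lie within the Hspe1 window. That shared stretch holds the heat shock element, present in 0.603% of all windows. The element was searched as GAA, TTC and GAA with 2 bases between neighbouring units, on both strands. Among the 32 members with a window it was found in Hspd1, Hspe1 and Hsph1, and 8 members had no window to search. In the shared stretch, 2 matches on opposite strands overlap each other, at chr1:55088059-55088071 and chr1:55088064-55088076. They lie 89 and 84 bases before the start of Hspe1, and the capitals in the window mark both.
Hspe1, chr1:55087898-55088197, plus strand: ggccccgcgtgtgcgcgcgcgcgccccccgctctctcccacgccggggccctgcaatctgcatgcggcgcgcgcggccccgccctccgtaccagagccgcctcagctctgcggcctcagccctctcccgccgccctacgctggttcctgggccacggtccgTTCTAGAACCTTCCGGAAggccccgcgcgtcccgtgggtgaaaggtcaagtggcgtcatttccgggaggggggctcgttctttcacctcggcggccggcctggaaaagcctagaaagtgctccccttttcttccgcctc
Read on the minus strand, the first match: GAAggTTCtaGAA
Read on the plus strand, the second match: GAAccTTCcgGAA

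Hspd1 had signals of 3574, 4209, 3698 and 4552 in DN2, 4955, 5386, 5267 and 5771 in DN3 and 5902, 5946, 5623 and 6288 in DN4. No DN3 or DN4 array fell into the DN2 range, and each sort was higher at each later stage. The difference was 0.42 ± 0.11 (SE, adjusted p = 0.0252) in DN3 against DN2 and 0.57 ± 0.11 (SE, adjusted p = 0.00158) in DN4 against DN2. The first of these calls ended when any of 5 arrays was left out (DN2 of sorts 1 and 3, DN3 of sorts 2, 3 and 4), with adjusted p of 0.0553 to 0.0776, and had an adjusted p of 0.00548 with the replicate block. Hspe1 had signals of 1922, 2558, 2738 and 2418 in DN2, 2830.4, 3189, 3013 and 3139 in DN3 and 3308, 3293, 2749.7 and 3420.0 in DN4. The groups did not overlap between DN4 and DN2, but in sort 3 the 2 values were nearly equal. It differed by 0.41 ± 0.13 (SE, adjusted p = 0.0242) in DN4 against DN2, and leaving out DN2 of sort 1 or DN4 of sort 1, 2 or 4 ended the call (adjusted p of 0.0555 to 0.0671).

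Hspa9 had signals of 3343, 3159.9, 3514 and 3669.7 in DN2, 4714, 4185, 3839 and 4566 in DN3 and 4000.3, 4010.4, 4592 and 5339 in DN4. Every DN3 and DN4 value was above every DN2 value. The difference was 0.38 ± 0.12 (SE, adjusted p = 0.0291) in DN4 against DN2, which ended without DN2 of sort 1 or 2 or DN4 of sort 3 or 4 (adjusted p of 0.0575 to 0.0902), and 0.34 ± 0.12 (SE, adjusted p = 0.105) in DN3 against DN2, or adjusted p = 0.0428 with the replicate block. Trap1 had signals of 1116, 1096, 1063 and 1240.4 in DN2, 1066, 1054, 1366 and 1358 in DN3 and 1541, 1379, 1535 and 1526 in DN4. Here DN4 lay above both earlier stages, which overlapped. It differed by 0.40 ± 0.12 (SE, adjusted p = 0.0193) in DN4 against DN2 and 0.31 ± 0.12 (SE, adjusted p = 0.0923) in DN4 against DN3, or adjusted p = 0.0365 with the replicate block.

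Mitochondrial chaperones receive proteins from the import machinery. Of 16 genes of import and quality control tested, 1 was higher in DN3 than in DN2, 1 in DN4 than in DN3 and 9 in DN4 than in DN2 (56.2%, against 17.9% of all genes), and 0 were lower in any of these by limma, with medians of 0.25, 0.22 and 0.45. At an unadjusted p under 0.05 the higher counts were 5, 5 and 10, with the replicate block 5, 7 and 12, and the lower counts 0. With the block 9.97%, 15.4% and 24.9% of all genes were higher. Without normalization the higher counts were 0, 0 and 1. The medians of the list were then 0.37, -0.24 and 0.17, beside 0.13, -0.41 and -0.29 for all genes. Tomm40, the pore of the outer membrane, had signals of 214 to 270 in DN2, 322 to 424 in DN3 and 492 to 605 in DN4, with no overlap between any 2 stages. It differed by 0.62 ± 0.12 (adjusted p = 0.00631) in DN3 against DN2, 0.55 ± 0.12 (adjusted p = 0.0104) in DN4 against DN3 and 1.17 ± 0.12 (adjusted p = 2.25e-05) in DN4 against DN2. Clpp and Yme1l1, proteases of the matrix and of the inner membrane, were higher in DN4 than in DN2 by 0.64 ± 0.11 (adjusted p = 0.00076) and 0.69 ± 0.14 (adjusted p = 0.00317).

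TRiC, the chaperonin that folds actin, tubulin and many other cytosolic proteins, is a ring complex of related subunits, all 8 of which were measured. Tcp1, Cct5, Cct7 and Cct8 were higher in DN4 than in DN2, and Cct2, Cct3, Cct4 and Cct6a were not called. These counts are 50% higher and 0% lower, against 17.9% and 16.6% of all genes. In each single step 0 subunits were called by limma; in DN3 against DN2 2 were higher at an unadjusted p under 0.05, and in DN4 against DN3 0. The 8 differences in DN3 against DN2 were all above 0, from 0.05 to 0.37, and those in DN4 against DN2 ran from -0.01 to 0.53.

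Cct8 had signals of 3636, 2826, 2926 and 3502 in DN2, 4685, 4319, 3743 and 3932 in DN3 and 5751, 5118, 4079 and 3842 in DN4. All DN4 values lay above all DN2 values, and sorts 1 and 2 were further apart between these stages than sorts 3 and 4. It differed by 0.53 ± 0.15 (SE, adjusted p = 0.0165) in DN4 against DN2. Cct7 had signals of 5193, 5486, 5138 and 5167 in DN2, 6228, 6154, 6047 and 6276 in DN3 and 6836, 6952, 6491 and 6694 in DN4. Its stages did not overlap at all. The difference was 0.36 ± 0.09 (SE, adjusted p = 0.00618) in DN4 against DN2 and 0.24 ± 0.09 (SE, adjusted p = 0.103) in DN3 against DN2, or adjusted p = 0.0357 with the replicate block.

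Cct5 had signals of 5372, 5613, 5486 and 5634 in DN2, 5860.1, 5885, 6296 and 6739 in DN3 and 6781, 6395, 6547 and 7029 in DN4. DN4 and DN3 both lay above DN2, and DN4 and DN3 overlapped. Cct5 differed by 0.27 ± 0.09 (SE, adjusted p = 0.0357) in DN4 against DN2, and any of 9 arrays left out ended the call (adjusted p of 0.0509 to 0.0949). Tcp1 had signals of 7209.8, 7149.9, 6685 and 7122 in DN2, 7685, 7567, 7242 and 7768 in DN3 and 8472, 8228, 8228 and 8445 in DN4. Its stages did not overlap, yet the step was small. Tcp1 differed by 0.25 ± 0.09 (SE, adjusted p = 0.043) in DN4 against DN2, and leaving out any of the 12 arrays ended the call (adjusted p of 0.0515 to 0.0968).

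With the replicate block, Cct3 (adjusted p = 0.0489), Cct6a (0.0488), Cct7 and Cct8 (0.0483) were called higher in DN3 than in DN2, while the count in DN4 against DN2 stayed at 4; with the Gapdh ratio added 0 were called in DN3 against DN2 and 2, Cct5 and Cct7, in DN4 against DN2. In these comparisons 9.97% and 24.9% of all genes were higher with the block, and 1.4% and 16.6% with the ratio added. Cct2 and Cct4 had intervals in DN4 against DN2 of -0.14 to 0.25 and -0.24 to 0.23. Cct3, whose probe sets include some that can match several transcripts, differed by 0.25 in DN4 against DN2 and by 0.58 (adjusted p = 0.000685) when such probe sets were left out. Prefoldin, which hands unfolded chains to TRiC, and its cofactors gave 0 calls of 9 in DN3 against DN2 by limma (0 at an unadjusted p under 0.05). In DN4 against DN3 2 of the 9 were higher, Pfdn4 by 0.44 ± 0.13 (adjusted p = 0.0361) and Pfdn1 by 0.40 ± 0.12 (adjusted p = 0.0407), and the same subunits were higher in DN4 than in DN2 by 0.69 ± 0.13 (adjusted p = 0.00142) and 0.56 ± 0.12 (adjusted p = 0.0035). That is 22.2% higher in each of these comparisons, against 7.21% and 17.9% of all genes.

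**Figure D4:**
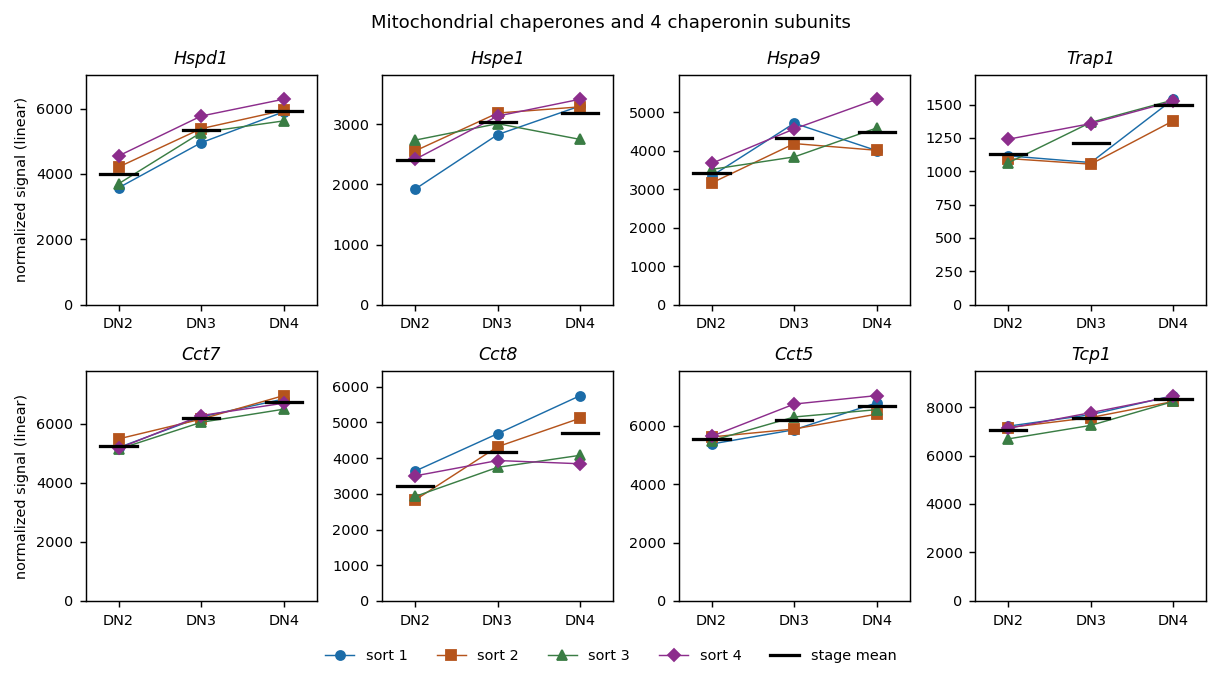
Normalized signal (linear axis) of the 4 mitochondrial chaperones and of the 4 chaperonin subunits called in DN4 against DN2, at DN2, DN3 and DN4; lines join the arrays of 1 sort and black bars are means of 4 arrays. In each panel every DN4 array is above every DN2 array, and for Trap1 the DN3 arrays of sorts 1 and 2 remain at the DN2 level.

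Among cytosolic members, Hsph1 and Ahsa1 were higher and Dnajb1 lower in DN4 than in DN2. Of the 9 measured in this role, 0 were higher and 1 lower in DN3 than in DN2, 0 were called in DN4 against DN3 by limma (1 higher and 0 lower at an unadjusted p under 0.05), and 2 were higher and 1 lower in DN4 than in DN2. The last counts are 22.2% and 11.1%, near the 17.9% and 16.6% of all genes. The fit with the block had 2 higher in DN3 than in DN2, 1 in DN4 than in DN3 and 4 in DN4 than in DN2. Of all genes 9.97%, 15.4% and 24.9% were higher in that fit. Hspa8, the constitutive Hsp70, was among those not called and had signals of 8201 to 10611 in DN2, 10236 to 11311 in DN3 and 9662 to 11099 in DN4.

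Hsph1 encodes Hsp110, the nucleotide exchange factor of Hsp70, and had signals of 919, 2200.4, 1801 and 1487 in DN2, 1989, 2847, 2409 and 2357 in DN3 and 2564, 3554, 2710.1 and 3406 in DN4. Each sort was higher at each later stage, and DN4 did not overlap DN2. The difference was 0.99 ± 0.23 (SE, adjusted p = 0.00651) in DN4 against DN2, and its other probe set, which is dimmer, differed by 1.57 ± 0.40. In DN3 against DN2 it was 0.64 ± 0.23 (SE, adjusted p = 0.107), or adjusted p = 0.0181 with the replicate block. Its window holds a heat shock element on the strand opposite to the gene, at chr5:149636288-149636300, 16 or 37 bases after the annotated starts. It is shown as the third member match of this element.
Hsph1, read on the plus strand: GAActTTCcaGAA

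Dnajb1 encodes Hsp40, the J-domain partner that delivers substrates to Hsp70, and had signals of 4030.2, 4185, 4228 and 3919.6 in DN2, 2835, 2853, 3522 and 3088 in DN3 and 2869, 3243, 3593 and 3013 in DN4. All DN3 and DN4 arrays lay below all DN2 arrays. The difference was -0.42 ± 0.11 (SE, adjusted p = 0.0293) in DN3 against DN2 and -0.37 ± 0.11 (SE, adjusted p = 0.0217) in DN4 against DN2. The first call ended without DN2 of sort 1, 2 or 3 or DN3 of sort 1, 2 or 4 (adjusted p of 0.0518 to 0.0824) and the second without DN4 of sort 1 or 4 (0.0597 and 0.0611). With arrays centred on their median Dnajb1 differed by -0.27 (adjusted p = 0.294) in DN3 against DN2 and by -0.18 (adjusted p = 0.392) in DN4 against DN2, and its other probe set, which is dimmer, by -0.36 ± 0.15 and -0.08 ± 0.15. Ahsa1, which activates the ATPase of Hsp90, had signals of 1556, 1693, 1534 and 1596 in DN2, 1391, 1771, 1764 and 1839.8 in DN3 and 1793, 2268, 1936 and 2177 in DN4. DN4 lay above DN2, though not by much, and the DN3 array of sort 1 was the lowest of all 12. It differed by 0.35 ± 0.12 (SE, adjusted p = 0.039) in DN4 against DN2, and any of 7 arrays left out ended the call (adjusted p of 0.0517 to 0.104); with the replicate block DN4 against DN3 was called too (0.27, adjusted p = 0.0394).

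Stip1, which links Hsp70 and Hsp90, was higher in DN4 than in DN2 in 4 of 4 sorts but missed the threshold at 0.63 ± 0.24 (SE, adjusted p = 0.0572). Sort 1 had its lowest Stip1 value at every stage, from 720 to 922, and with the replicate block the adjusted p was 0.0226 in DN3 against DN2 and 0.000975 in DN4 against DN2. Hsp90aa1, the inducible cytosolic Hsp90, had an adjusted p of 0.157 in DN4 against DN2 and of 0.0229 with the block, at a difference of 0.28. Hspa4, Dnaja1 and Dnajc2 were not called in any comparison by either fit of their brightest probe set. The probe sets of Hspa4 disagreed in DN4 against DN2. The brightest differed by 0.01 and the others by 0.57 ± 0.28, -0.57 ± 0.18 and 0.83 ± 0.23. For Dnaja1 in DN4 against DN3 the brightest differed by -0.05 and the others by -0.41 ± 0.12 and -0.48 ± 0.25.

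Of 21 further Hsp90 and Hsp70 cochaperones, 1 was higher in DN3 than in DN2, 1 lower in DN4 than in DN3, and 5 higher and 0 lower in DN4 than in DN2 (23.8% higher, against 17.9% of all genes). With the replicate block the counts were 3 higher and 0 lower, 3 and 2, and 8 and 1. Of all genes 9.97% and 10.9%, 15.4% and 14.8%, and 24.9% and 21.9% were called with the block. Fkbp4, an immunophilin of the Hsp90 complex, had signals of 886 to 1162 in DN2, 1486 to 1537 in DN3 and 1537 to 2092 in DN4, and differed by 0.87 ± 0.12 (adjusted p = 0.00021) in DN4 against DN2. Bag2, an exchange factor of Hsp70, differed by 0.97 ± 0.19 (adjusted p = 0.00223) there. Of 13 J-domain proteins outside the list, 1 was higher in DN3 than in DN2 and 3 lower in DN4 than in DN3. In DN4 against DN2 1 was higher and 3 lower (7.69% and 23.1%, against 17.9% and 16.6% of all genes). With the replicate block these counts were 1 and 5, where 24.9% and 21.9% of all genes were called. Dnajb2 and Dnajb14 were lower in DN4 than in DN3, by -0.86 ± 0.14 (adjusted p = 0.00214) and -0.81 ± 0.18 (adjusted p = 0.01).

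The stress-inducible pair Hspa1a and Hspa1b was not called in any comparison, and sort 3 stood above the other sorts at every stage. These genes are nearly identical in sequence, so their probe sets may not separate them. In sorts 1 to 4, Hspa1b had signals of 84.4, 61.4, 286 and 91.6 in DN2, 35.7, 45.9, 184 and 37.4 in DN3 and 51.1, 58.1, 154 and 70.9 in DN4. The signal of sort 3 was 3.1, 4.0 and 2.2 times that of the next highest sort at DN2, DN3 and DN4. Hspa1a had signals of 64.7, 27, 105 and 27.4 in DN2, 21.1, 18.7, 62.1 and 19.2 in DN3 and 13.3, 16.7, 54.7 and 23.9 in DN4, and its highest array was again sort 3 at each stage. The difference of Hspa1b was -0.83 ± 0.55 (SE, adjusted p = 0.405) in DN3 against DN2, lower in 4 of 4 sorts, and with the replicate block its adjusted p was 0.0131. That of Hspa1a was -0.87 ± 0.48 (SE, adjusted p = 0.183) in DN4 against DN2, lower in 4 of 4 sorts, with an adjusted p of 0.0152 with the block. Jun, an immediate-early gene, was also highest in sort 3 at each stage, where it reached 896 (DN2), 823 (DN3) and 241 (DN4). It was picked from 12 such genes after its values were seen, and the order of sorts in the others is not given. The part of handling in the Hspa1a and Hspa1b values was not tested. The summed signal of 12 immediate-early genes was 7449 to 17722 in DN2, 13291 to 20470.2 in DN3 and 11725 to 16248 in DN4.

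Hsf2, the only heat shock factor measured, had signals of 17.4 to 35.7 in DN2, 16.6 to 33 in DN3 and 20.8 to 24.8 in DN4, close to the filter, and was not called. Among 5 other heat shock factor targets and small heat shock proteins, 1 was higher in DN3 than in DN2, 2 in DN4 than in DN3 and 2 in DN4 than in DN2, with 0 lower by limma, also at an unadjusted p under 0.05. The higher shares are 20%, 40% and 40%, against 4.78%, 7.21% and 17.9% of all genes. Hspb11, named as a small heat shock protein and known as a component of intraflagellar transport, differed by 1.34 ± 0.16 (adjusted p = 5.37e-05) in DN4 against DN2. Serpinh1, the collagen chaperone of the ER, differed by 1.10 ± 0.34 (adjusted p = 0.0455) in DN4 against DN3.

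**Figure D5:**
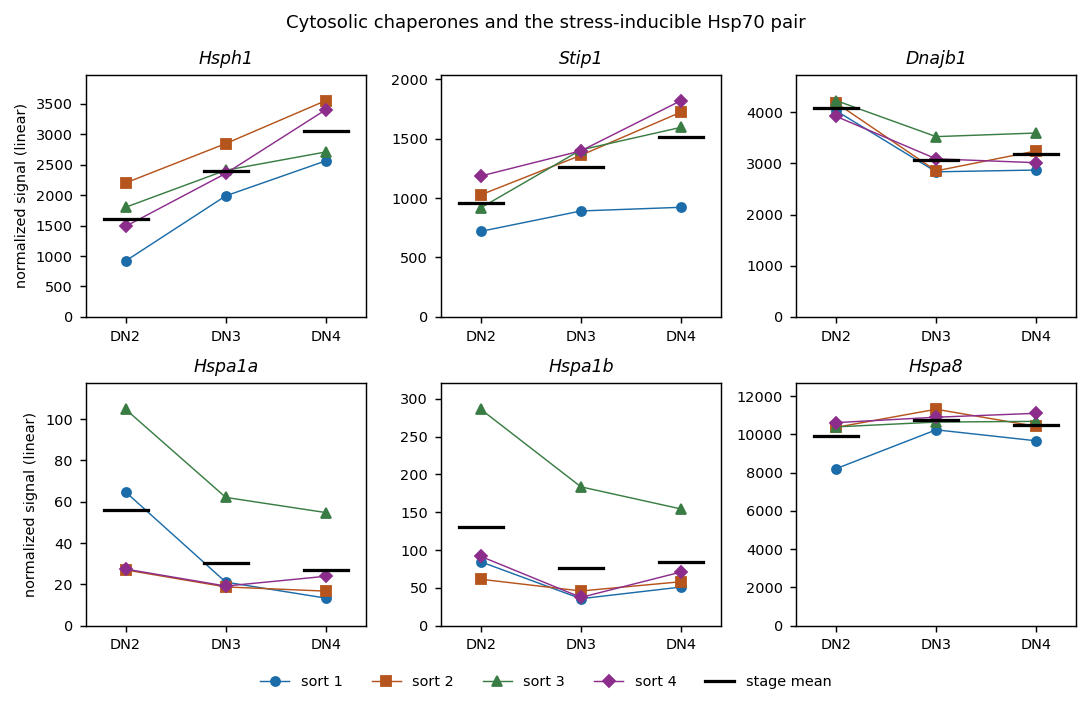
Normalized signal (linear axis) of 4 cytosolic chaperones and of the inducible pair Hspa1a and Hspa1b at DN2, DN3 and DN4; lines join the arrays of 1 sort and black bars are means of 4 arrays. Hsph1 is higher at each later stage in every sort, Dnajb1 is lower in DN3 and DN4 than in DN2, and sort 3 stands above the others for Hspa1a and Hspa1b.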

How the data were processed

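Sorted DN2, DN3 and DN4 thymocytes, 4 samples each, were measured on single-colour arrays. RNA was extracted on RNeasy columns and labelled with biotin after repeated cDNA synthesis, per the labels' protocols. The authors deposited intensity for each probe set on a linear scale; GCOS is named in the submitters' processing notes, while the sources used here do not give a version, an algorithm or a scaling. Arrays of the deposited table were not on 1 scale, so signals of the 45101 probe sets, less 64 controls, were quantile normalized, and 5.68 was added before log2.

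Symbols came from the platform annotation, in which 34945 probe sets had 1 symbol, 932 several and 9160 none; 34741 symbols were updated through Entrez identifiers to RefSeq GRCm38.p6 and 204 kept. Only probe sets with 1 symbol were used, the brightest for each gene, and genes were tested if above the table-wide median (signal 20.5, log2 4.71) on at least 4 arrays. Stage means of all 12 arrays were fitted in limma 3.58.1 (R 4.3.3) without a block, two-sided, with Benjamini-Hochberg adjustment. Precision is limited by the number of arrays. The fit was tested on simulated data. Promoters and figures were handled in Python 3.11.15 with pandas 2.3.3 and matplotlib 3.10.9.

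Per the labels, same-numbered samples share a source of cells. After the stage mean was taken off, arrays of 1 sort correlated at 0.251 to 0.343 and those of different sorts at 0.107 or less, and 12 of 12 arrays correlated best with their own sort, so results with the sort as a block are given where they differ. No 2 arrays were identical.

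The members, gene lists and tests were chosen with earlier results of these data known. Of the members, those called in at least 1 comparison are given per array, with up to 2 others for each role; of the other lists, at most 3 called genes with the smallest adjusted p are named. Fos, Jun, the marker genes named and the members named for a result with the block or another setting were chosen after their values were seen. Alternatives were the block, no normalization, median centring, an offset of 1, no filter or a 75th percentile filter, the mean of all probe sets, probe sets matching several transcripts left out, only 8 arrays, only sorts 1 and 2 or 3 and 4, the Gapdh ratio as a covariate with the block, and each array left out.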

Additional observations from a re-analysis of the deposited data

Results flagged for a closer look

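Among 111 groups of 4 arrays (37 members at 3 stages), 8 held an array that lay far from the other 3, with a gap beyond Dixon's 95% critical value for 4 samples; chance flags about 1 in 20 groups. Values here are log2(signal + 5.68). Hspa1b read 7.56 and Hspa1a 6.08 in DN3 of sort 3, above 5.37 to 5.69 and 4.61 to 4.74 in the other sorts. Stip1 read 9.81 and Ahsa1 10.45 in DN3 of sort 1, below 10.42 to 10.46 and 10.79 to 10.85. Hspa8 read 13.00 in DN2 of sort 1, below 13.34 to 13.37. Tcp1 read 12.71 in DN2 of sort 3, below 12.80 to 12.82, and Cct7 read 12.42 in DN2 of sort 2, above 12.33 to 12.34. Trap1 read 10.44 in DN4 of sort 2, below 10.58 to 10.59.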

How the results depend on the processing

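Over the alternatives, values of members called in the reported fit kept their sign and the call in 376 cases, lost the call in 151 and turned sign in 1; values not called there gained a call in 34 cases, and of those not called in either fit 1936 kept their sign and 151 turned it. Numbers of members called higher and lower in DN3 against DN2 were 2 and 1 as reported. They were 10 and 3 with the replicate block, 1 and 0 with the replicate block and the Gapdh ratio, 1 and 0 without normalization, 0 and 0 without the filter, with only the 8 arrays compared or with only sorts 1 and 2, and 1 and 0 with only sorts 3 and 4; median centring gave 0 lower and the mean of all probe sets 2 lower. In DN4 against DN3 the reported counts were 0 and 2, and they were 2 higher with the replicate block and 0 lower with the mean of all probe sets, with only sorts 1 and 2 or with only sorts 3 and 4. In DN4 against DN2 the reported counts were 14 and 3, with 6 lower with the replicate block, 2 higher without normalization, 7 higher without the filter, 8 higher with only the 8 arrays compared, 1 lower with the mean of all probe sets, 2 higher and 1 lower with only sorts 1 and 2, and 3 higher with only sorts 3 and 4. Fits to 8 arrays or to sorts in pairs hold fewer arrays, and without the filter more genes were tested; the cause was not tested for the others. Leaving out 1 array at a time gave 0 to 3 higher and 0 to 1 lower in DN3 against DN2, 0 higher and 2 lower throughout in DN4 against DN3, and 8 to 14 higher and 2 to 3 lower in DN4 against DN2. The mean of all probe sets ended the calls of Xbp1, Ern1, Cct8, Trap1, Pdia3, Ahsa1 and, in DN4 against DN2, Dnajb1. Canx turned to -0.12 in DN4 against DN2 when probe sets matching several transcripts were left out, since another probe set then stood for it. Of 56 other bright probe sets of 29 members, 0 of the 27 comparisons with a called member differed by over 0.5 in the opposite direction. Many called differences were themselves under 0.5, so this count does not show agreement. In DN4 against DN2, 1 probe set each of Canx, Xbp1 and Ern1 differed by -0.12, 0.32 and 0.03, where the brightest differed by 0.32, -0.61 and -0.97. Hsf2 and Hspa1a lie near the filter, where signal over background limits what can be seen.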
